A study of Mus musculus with 100 samples.

Results

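The genes described here are those of the cytoplasmic ribosomal proteins, chosen by their names in the table of counts per gene (symbols of the form Rpl or Rps with a number, the stalk genes Rplp0, Rplp1 and Rplp2, and Rpsa, without symbols ending in -ps). The rule gave 85 of the 17310 genes, of which 52 belong to the large subunit and 33 to the small subunit, and no measured value entered it. Polyadenylated RNA from mouse knee joints was sequenced in 100 libraries that fall into 21 groups. The mice were 10 weeks old, of the strains MRL/MpJ, given in the labels as not susceptible to post-traumatic osteoarthritis (PTOA), C57BL/6, given as moderately so, and STR/ort, given as highly susceptible. The right knee was loaded with 10 to 12 N until injury, and the joints of 0-day were taken uninjured (4 per strain). After loading, the injured joint and its uninjured contralateral joint were both taken, at 1-day, at 1-week or at 2-weeks (5 libraries per group, except 4 for the uninjured joints of MRL/MpJ and STR/ort at 1-week). The joints were taken whole, with small amounts of soft tissue, and the libraries held 6182016 to 20986027 counts. The labels put the 70 libraries of 0-day, 1-day and 1-week in one experimental batch and the 30 libraries of 2-weeks in another, so that time and batch cannot be told apart for 2-weeks. Only at 2-weeks do the labels name the animal of each joint. The main tests did not use this pairing, so at every time p-values measure the spread between these libraries, whatever its source.

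A ribosome joins a small subunit, which reads the mRNA, to a large subunit, which forms the peptide bonds, and each subunit carries a fixed set of proteins around its RNA. The mRNAs of these proteins are among the most abundant of the cell, and most of them begin with a C followed by a run of pyrimidines, the 5′ terminal oligopyrimidine (TOP) motif, through which the growth-dependent kinase mTORC1 controls how strongly they are translated. Some have a tissue-restricted paralog, such as Rpl3l, which replaces Rpl3 in striated muscle. Because ribosomal protein mRNAs are so often steady, they also serve as housekeeping genes in expression studies, and 15 of the 85 members belong to the 25 housekeeping genes that the authors used for normalization.

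The windows around the start sites of a few members are shown because the TOP motif lies at the start. RefSeq promoters (GRCm38.p6) could be matched for 64 of the 85 members, with 76 start sites. A run of at least 8 pyrimidines, in C or T only and on the strand of the gene, lay within 15 bases on either side of the start in 29 of the 76 (38.2%), against 12.0% of all 32851 promoters and 12.0% of the 75 of mitochondrial ribosomal protein genes. In the following windows of 30 bases, written 5′ to 3′ on the strand of the gene, capitals mark each such run, wherever in the window it lies, with the start at the 16th base. Rps6, a small subunit protein and a target of S6 kinase, lies at chr4:86857353-86857382 (minus strand), Rpl35 at chr2:39005117-39005146 (minus), Rps15a at chr7:118116133-118116162 (minus), the stalk gene Rplp2 at chr7:141447636-141447665 (plus), Rpl39 at chrX:37085208-37085237 (minus) and Rpl32l at chr10:20208424-20208453 (plus). Rpl27 at chr11:101442230-101442259 (plus) and Rpl3l at chr17:24727811-24727840 (plus, the first of its listed starts) are shown as members without such a run.
Rps6: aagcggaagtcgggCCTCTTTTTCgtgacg
Rpl35: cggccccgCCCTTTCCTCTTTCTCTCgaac
Rps15a: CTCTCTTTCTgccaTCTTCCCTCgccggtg
Rplp2: tgcgtcagcgTCTTCCTTTCgccgccggac
Rpl39: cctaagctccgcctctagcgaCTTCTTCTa
Rpl32l: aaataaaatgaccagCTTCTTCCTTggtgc
Rpl27: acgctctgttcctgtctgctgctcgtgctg
Rpl3l: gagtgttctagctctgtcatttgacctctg

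In the whole promoter windows of 300 bases, on either strand, the letters CCGGAA occurred in 47.4% of the members' promoters against 14.9% of all promoters, and in 57.3% of those of mitochondrial ribosomal protein genes. Such matches describe letters in a window and do not show that a factor binds there.

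Counts of the 85 members were detected in every group, and the genes covered a wide range of levels. Levels below are CPM, counts scaled to a common library size of 1e6 after normalization by TMM, which scales libraries by the bulk of their genes, over all libraries. Over all 100 libraries, both batches pooled, the highest mean levels were those of Rpl5 (1201 CPM), which carries the 5S RNA into the large subunit, Rps3a1 (1130 CPM), Rpl4 (971 CPM), Rpsa (949 CPM) and the stalk gene Rplp0 (813 CPM). The order differed between the batches described below, with Rpl5 first at 0-day to 1-week (1506 CPM) and Rplp0 at 2-weeks (927 CPM, where Rpl5 was at 489). The lowest over all libraries were those of Rpl39l (2.07 CPM), Rpl32l (3.83 CPM), Rpl22l1 (12.5 CPM), Rps4l (14.7 CPM) and Rps27l (32.4 CPM), all copies or paralogs of another member. In all 74 members had mean levels of 100 to 1000 CPM, and the 10 highest held 27.3% of the members' counts. Per kilobase of transcript the order was different, with Rps29 at 1330, Rplp1 at 1258 and Rps3a1 at 1157 CPM per kb above Rpl5 at 587 CPM per kb. The members resemble other genes, since the median member shared 51.7% of its 50-base windows with another annotated gene (pseudogenes included, GENCODE vM21), while Rpl3l and Rpl39l shared none. Rpl32l and Rps4l are annotated there as processed pseudogenes, so reads given to them or to their parents Rpl32 and Rps4x are uncertain.

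In the 70 libraries of the first batch, the members together held 2.61 to 4.58% of all counts, with a median of 3.32%. At 0-day the mean share was 3.09% ± 0.21 (SD, n = 4) in MRL/MpJ, 3.31% ± 0.15 in C57BL/6 and 2.98% ± 0.29 in STR/ort, ranges that overlapped. In the uninjured joints at 1-day it was 3.03% ± 0.11 in MRL/MpJ, 3.39% ± 0.33 in C57BL/6 and 3.88% ± 0.32 in STR/ort (n = 5 each), and in the injured joints 3.22% ± 0.21, 3.62% ± 0.15 and 4.26% ± 0.33. At 1-week the share in STR/ort was 3.72% ± 0.25 (n = 4) in uninjured and 3.64% ± 0.098 (n = 5) in injured joints, against 2.98 to 3.22% in the groups of the other strains. With library totals as the standard, STR/ort thus moved from the lowest mean share of the strains at 0-day to the highest at both 1-day and 1-week. The share of 22 skeletal muscle genes moved the other way, from 11.2% of counts in STR/ort at 0-day to 5.98% in the uninjured joints at 1-day and 5.32% at 1-week, and its part in the members' share was tested only by leaving these genes out of the total: the members' share at 1-day was then 4.12% in uninjured STR/ort joints, 3.66% in C57BL/6 and 3.36% in MRL/MpJ. In bulk tissue, fewer cells of a type and less RNA per cell cannot be told apart.

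**Figure D1:**
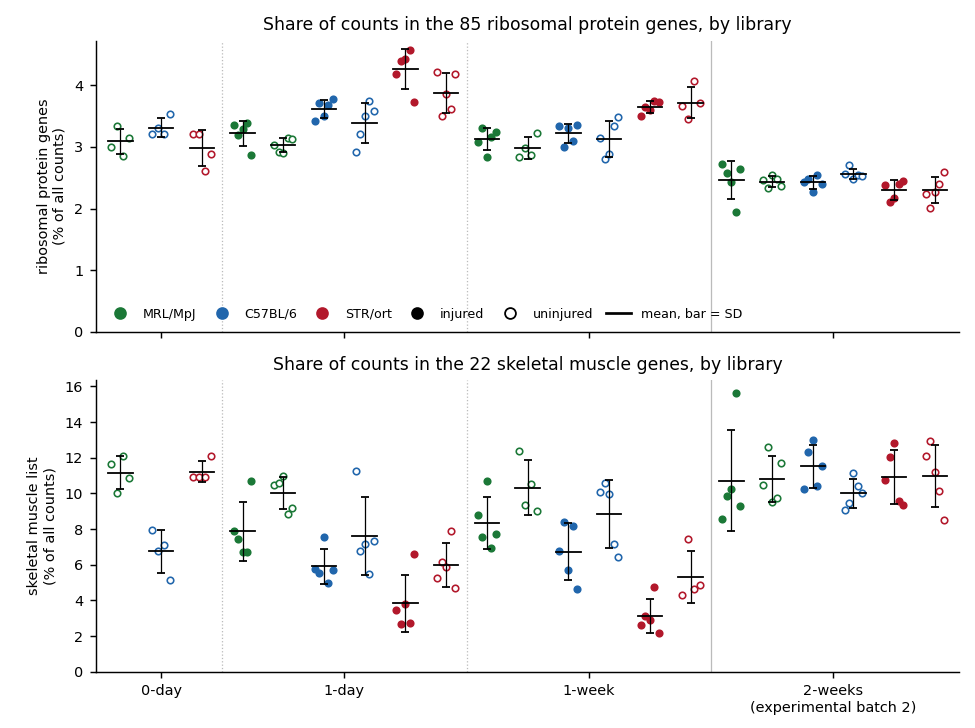
Share of all counts per library that fell on the 85 ribosomal protein genes, and on 22 skeletal muscle genes, in percent, for each of the 21 groups. Each point is a library and each bar a group mean. The group means of STR/ort at 1-day and 1-week are the highest of the strains in the ribosomal protein panel, where their libraries overlap with others (the lowest is at 3.45%, and C57BL/6 reaches 3.78% at 1-day), and the 30 libraries of 2-weeks lie between 1.95 and 2.72% in the first.

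The 2-weeks libraries, which are the second batch, differed from the others in which members made up the pool. Their share of counts on members was 1.95 to 2.72%, with a median of 2.44%. The summed counts of large subunit genes were 1.46 to 1.54 times those of small subunit genes at 2-weeks and 1.73 to 2.04 times in the first batch, without overlap. For 35 of the 85 members the 30 libraries of 2-weeks all lay outside the range of the other 70, 9 above and 26 below, against 10.1% of the 14500 genes with a mean count of at least 10. The median member was at 0.769 of its level in the first batch, the median of all these genes at 0.991 and that of the mitochondrial ribosomal protein genes at 0.934. These are differences of time and batch together, and no test was made of them.

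Rpl39, a small protein of the exit tunnel for the nascent chain, stood furthest apart. It had 75.0 CPM on average (47.6 to 103) in the first batch, 399 to 1765 counts per library, and at most 0.327 CPM at 2-weeks, where each library had 0 to 4 counts. Lower without overlap were also Rpl37 (377 CPM against 79.2), Rpl36a (535 against 131), Rpl5 (1506 against 489, a 3.08-fold difference), Rpl7l1, which shares its name with the large subunit gene Rpl7 (136 against 59.8), and Rpl3, at the peptidyl transferase centre (946 against 446). Higher without overlap were, among others, Rpl22l1 (9.64 CPM in the first batch and 19.1 at 2-weeks) and Rps27l (27.8 and 43.3).

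Rpl13 was higher at 2-weeks by 1.83-fold on average, but its range in the first batch (18.2 to 139 CPM) held the later values. The levels of the members kept almost the same order from 1-day to 1-week (Spearman rho 0.997 across genes) and a looser one from 1-week to 2-weeks (rho 0.768), where genes are no independent replicates. The 44 members that shared over 50% of their windows with another gene moved by a median of 0.570 (absolute log2 fold) and the 41 others by 0.639, and the part of read placement in the differences between batches was not tested.

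**Figure D2:**
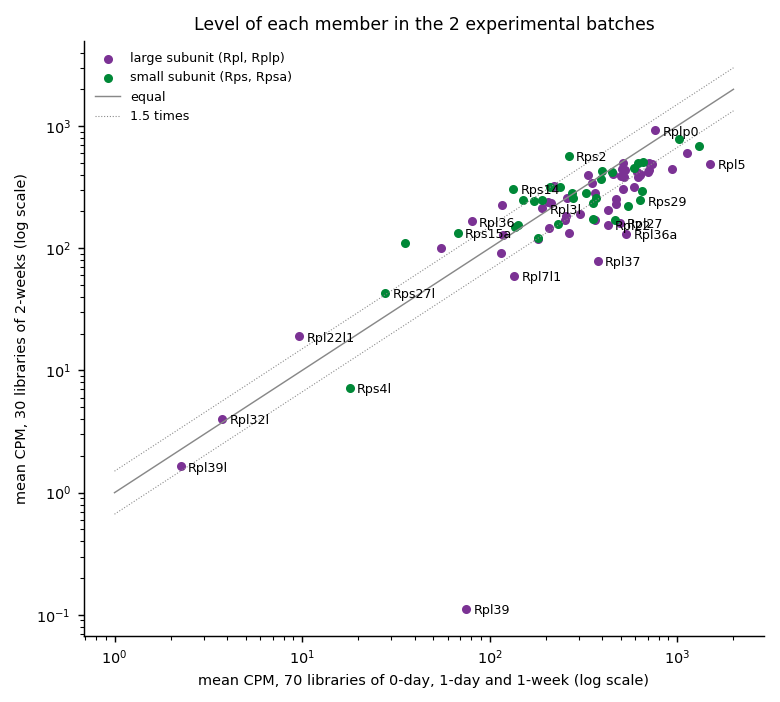
Mean CPM of each member in the first batch (0-day, 1-day and 1-week, 70 libraries) against its mean CPM at 2-weeks (30 libraries), on log axes, with the line of equal levels. Most points lie below the line, Rpl39 far below it at 0.113 CPM, and Rpl22l1 and Rps27l among those above it.

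Members differed in how steady their ratio to the pool was. Over the 21 group means of the log2 ratio to the summed counts of all members, the median member had a range of 0.73, or of 0.28 within the first batch. The narrowest were Rpl23a with a range of 0.16, Rps20 of 0.18 and Rpl6 and Rpl7 of 0.21 each, both batches included. The widest ranges were those of Rpl39 (9.31), Rpl32l (4.18), Rpl3l (2.37) and Rpl13 (2.36). For Rpl39 the difference lay between the batches, for Rpl32l between strains and for Rpl3l between strains, times and joints. The median member's range over the 6 group means was 0.18 at both 1-day and 1-week and 0.11 at 2-weeks, beside within-group SDs of 0.095, 0.10 and 0.041.

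**Figure D3:**
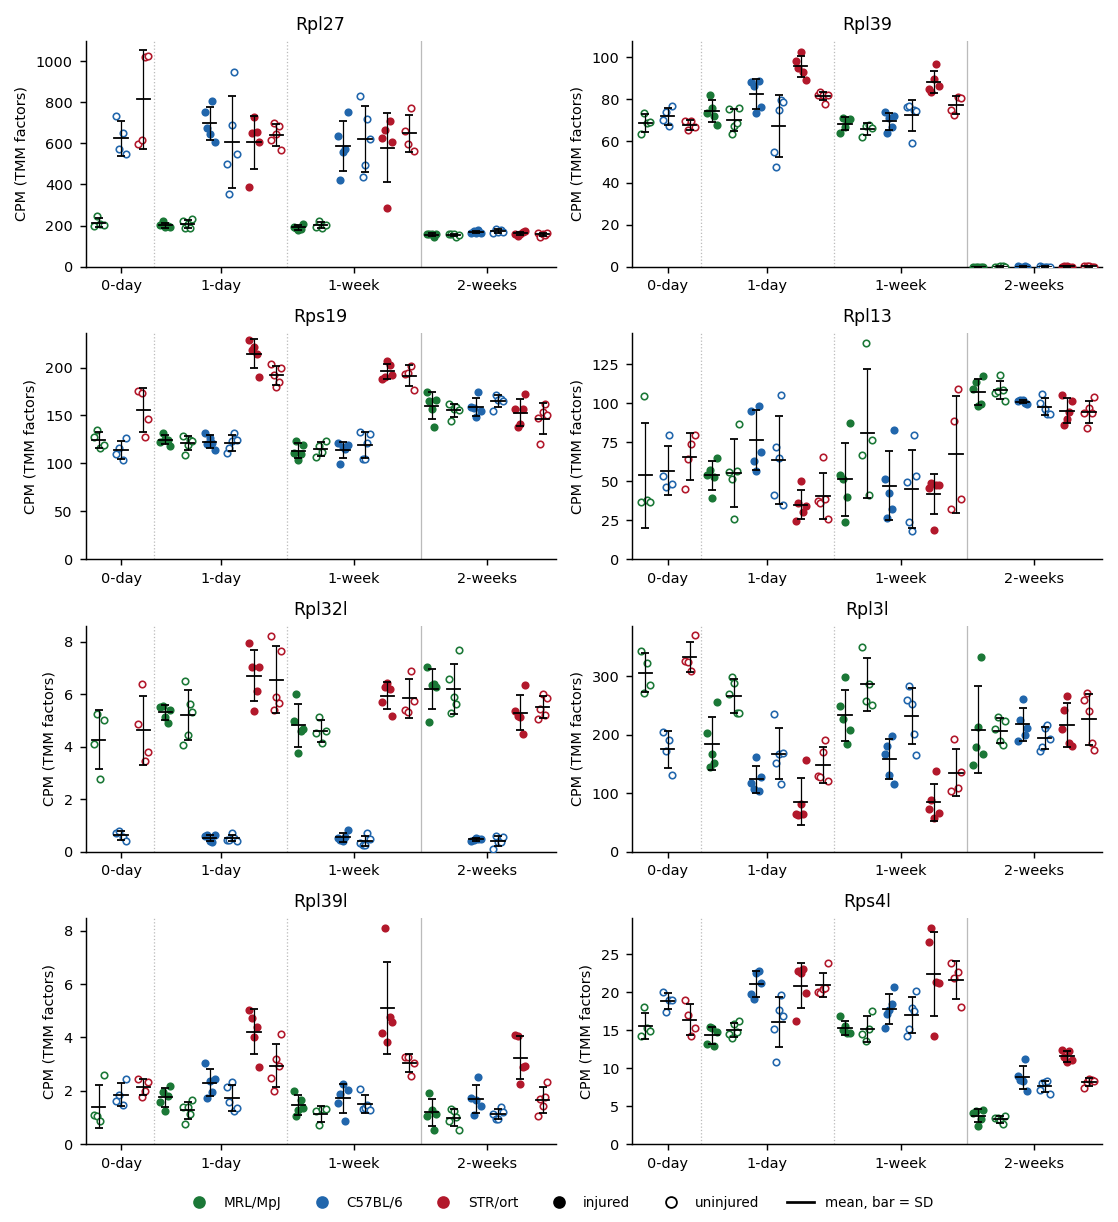
CPM per library of Rpl27, Rpl39, Rps19, Rpl13, Rpl32l, Rpl3l, Rpl39l and Rps4l in each of the 21 groups, 1 point per library. Rpl27 is low in all MRL/MpJ libraries and in all libraries of 2-weeks, Rpl39 is near 0 at 2-weeks, and Rpl32l is low in all C57BL/6 libraries.

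A few libraries stood apart in the composition of the pool, measured as the root mean square deviation of 80 members' log2 ratios from their group median (5 members with wide ranges left out). Its median was 0.097 over the libraries of the first batch and 0.043 over those of 2-weeks. The highest value, 0.37, was that of injured STR/ort replicate 3 at 1-week, in which the log2 ratio to the pool differed from the group median by -1.41 for Rps29, -1.26 for Rpl13 and -1.08 for each of Rps21, Rps13 and Rpl27. Rps29 was at 241 CPM there, against 649 to 718 CPM in the other libraries of the group. Next were injured STR/ort replicate 1 at 1-day (0.29), STR/ort replicate 3 at 0-day (0.26), uninjured C57BL/6 replicate 4 at 1-day (0.25) and uninjured C57BL/6 replicate 2 at 1-week (0.22). In the injured STR/ort replicate 1 at 1-day, too, Rps29 (-1.26) and Rps13 (-1.0) were low, and STR/ort replicate 3 of 0-day is a library on which several of the STR/ort counts below depended.

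At 0-day the strains differed in a few members, and most members did not pass. All comparisons were tested with the quasi-likelihood test of edgeR with Benjamini-Hochberg adjustment over all genes, and a gene passed at an adjusted p below 0.05. TMM was the scaling, and among the others tried was RUVg, which removes factors of unwanted variation estimated from control genes. Between STR/ort and MRL/MpJ 6 members were higher and 6 lower (16.4% and 17.4% of all genes were), between STR/ort and C57BL/6 6 and 3 (15.2% and 20% of all genes), and between C57BL/6 and MRL/MpJ 4 and 3 (18.5% and 15.6%). The median member differed by -0.10, -0.07 and -0.04 (log2) in these comparisons, and the sign of each turned under at least 1 of the scalings described below (0.01 in the first with 2 RUVg factors, 0.12 in the second with 1 RUVg factor and 0.07 in the third with library totals). Leaving out 1 library changed these counts: the first was 7 without MRL/MpJ replicate 4 or STR/ort replicate 3 and 23 without STR/ort replicate 1 or 2, the second 15 without STR/ort replicate 1, and the third 4 without MRL/MpJ replicate 1 or C57BL/6 replicate 3. The median against C57BL/6 was 0.01 without STR/ort replicate 3.

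Rpl27, a large subunit protein, had the smallest adjusted p in both comparisons with MRL/MpJ. Its levels at 0-day were 199, 249, 206 and 203 CPM in MRL/MpJ, 733, 571, 649 and 547 CPM in C57BL/6 and 596, 615, 1019 and 1023 CPM in STR/ort. All MRL/MpJ libraries lay below all others. The log2 difference of STR/ort to MRL/MpJ was 1.93 ± 0.16 (SE, adjusted p = 3.2e-08) and that of C57BL/6 to MRL/MpJ 1.59 ± 0.16 (adjusted p = 3.8e-07), while STR/ort and C57BL/6 differed by 0.34 ± 0.15 (adjusted p = 0.0896). Over the whole first batch the gap held, with 181 to 249 CPM in MRL/MpJ and 287 to 1023 CPM in the other strains. At 2-weeks all strains had 144 to 186 CPM, and STR/ort and MRL/MpJ differed by 0.01 ± 0.048 (adjusted p = 0.893) in uninjured joints.

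Rpl29, another large subunit protein, was at 153, 177, 132 and 152 CPM in MRL/MpJ at 0-day, at 223, 217, 226 and 230 CPM in C57BL/6 and at 233, 235, 211 and 248 CPM in STR/ort. Again MRL/MpJ lay below both other strains without overlap, by 0.60 ± 0.080 (adjusted p = 1.3e-05) against STR/ort and 0.59 ± 0.080 (adjusted p = 1.5e-05) against C57BL/6. At 2-weeks the difference of STR/ort to MRL/MpJ was 0.11 ± 0.043 in uninjured joints (adjusted p = 0.0463).

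Rpl32l, the annotated copy of Rpl32, was low in C57BL/6. It had 4.09, 5.23, 2.76 and 5.0 CPM in MRL/MpJ at 0-day, 0.724, 0.804, 0.548 and 0.393 CPM in C57BL/6 and 4.85, 6.40, 3.45 and 3.80 CPM in STR/ort. The C57BL/6 libraries held 4 to 10 counts each and those of the other strains 16 to 54. Its log2 difference was 2.82 ± 0.30 for STR/ort against C57BL/6 (adjusted p = 1.1e-06) and -2.71 ± 0.31 for C57BL/6 against MRL/MpJ (adjusted p = 2.0e-06), and Rpl32l was the member with the smallest adjusted p for STR/ort against C57BL/6 in the uninjured joints at every later time, 2-weeks included (3.74 ± 0.20, adjusted p = 3.9e-15). The parent Rpl32 passed in none of the 3 comparisons at 0-day.

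Rps15a, a small subunit protein, was lower in STR/ort at 0-day. Its levels were 75.1, 68.5, 67.3 and 65.9 CPM in MRL/MpJ, 67.6, 68.0, 66.5 and 71.6 CPM in C57BL/6 and 61.9, 58.7, 37.6 and 48.0 CPM in STR/ort. The STR/ort libraries lay below all others, with replicates 3 and 4 lowest. The difference was -0.42 ± 0.11 against MRL/MpJ (adjusted p = 0.00731) and -0.45 ± 0.11 against C57BL/6 (adjusted p = 0.00453), the latter 0.04 under RUVg with 10 genes. Rpl24 was higher in STR/ort against both other strains (0.37 ± 0.14 and 0.46 ± 0.14), but this rested on STR/ort replicates 3 and 4 (444 and 353 CPM, against 262 and 237 in replicates 1 and 2). Against MRL/MpJ the call was lost without any of 6 of the 8 libraries, with differences of 0.18 to 0.49 when single libraries were left out, and against C57BL/6 without STR/ort replicate 3 (0.28). Under RUVg with 2 factors the difference to MRL/MpJ was -0.04.

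In the uninjured contralateral joints at 1-day and 1-week, the members lay mostly higher in STR/ort than in the other strains, each by a small amount, with TMM scaling. Under RUVg, described below, few of these differences passed at 1-day, and at 1-week fewer passed than with TMM scaling. The median against MRL/MpJ at 1-day was -0.01 with 1 factor from 25 genes. At 1-day 58 members were higher in STR/ort than in MRL/MpJ and 2 lower (25.6% and 22.6% of all genes), and at 1-week 47 and 2 (22.5% and 21.6%). Against C57BL/6 it was 37 and 1 at 1-day (14.5% and 13.5%) and 49 and 2 at 1-week (22.2% and 21%). The median member differed by 0.26 and 0.23 from MRL/MpJ and by 0.19 and 0.23 from C57BL/6 (log2), and 6 and 5 of those higher than in MRL/MpJ were so by more than 1.5-fold (13.1% and 13.7% of all genes). The median of all genes was 0.03 for STR/ort against MRL/MpJ at 1-day (0.13 with library totals and -0.13 with scaling by 25 housekeeping genes, where the members' median was 0.37 and 0.09), and 79 of the 85 members had a positive difference.

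In the injured joints, too, more members were higher than lower in STR/ort with TMM scaling. STR/ort exceeded MRL/MpJ in 69 members at 1-day and fell below it in 2 (23.4% and 22.8% of all genes), and in 55 and 2 at 1-week (26.3% and 27.2%). Against C57BL/6 45 were higher and 3 lower at 1-day (13.8% and 16.3%), and 57 and 2 at 1-week (25.1% and 24.4%). Many of these calls were lost under RUVg, where against MRL/MpJ the 69 and 2 became 5 and 0 with 1 factor from 25 genes, 5 and 1 with 2 factors and 25 and 0 with 1 factor from 10 genes, and the 55 and 2 became 16 and 14, 4 and 1, and 23 and 6. Between C57BL/6 and MRL/MpJ fewer members passed, 10 and 2 in uninjured joints at 1-day (18.8% and 15.3%) and 3 and 5 at 1-week (8.52% and 7.98%), 12 and 2 in injured joints at 1-day (19.8% and 18.2%) and 2 and 2 at 1-week (10.1% and 9.55%). These comparisons share libraries and are no independent repeats of each other.

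Rps19, a small subunit protein needed to mature the 18S RNA, is an example of a gap to both other strains. In the uninjured joints at 1-day it was at 129, 109, 119, 124 and 123 CPM in MRL/MpJ, at 111, 116, 123, 132 and 124 CPM in C57BL/6 and at 203, 192, 179, 185 and 200 CPM in STR/ort. Every STR/ort library lay above all others. The difference to MRL/MpJ was 0.71 ± 0.058 (adjusted p = 2.7e-11) and that to C57BL/6 0.67 ± 0.058 (adjusted p = 2.2e-10), and at 1-week the difference to MRL/MpJ was 0.76 ± 0.080 (adjusted p = 8.9e-09). At 0-day Rps19 already differed by 0.33 ± 0.097 from MRL/MpJ (adjusted p = 0.0137) and by 0.41 ± 0.096 from C57BL/6 (adjusted p = 0.00265). Rps3a1 (0.56 ± 0.079 against MRL/MpJ at 1-day), Rpl5 (0.29 ± 0.075) and Rps6 (0.25 ± 0.072) are further examples of the many smaller differences.

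The exceptions were few. Rpl13a, whose introns carry small nucleolar RNAs, and Rpl3l were the members lower in STR/ort than in MRL/MpJ at both times in uninjured and in injured joints. For Rpl13a the difference in uninjured joints was -0.39 ± 0.086 at 1-day (adjusted p = 0.000395) and -0.38 ± 0.12 at 1-week (adjusted p = 0.0101). For Rpl3l it was -0.80 ± 0.20 (adjusted p = 0.00155) and -1.06 ± 0.22 (adjusted p = 0.000265), but 0.27, 0.21 and 0.08 at 1-day under the RUVg fits, and at 1-week 0.65 with 2 factors and 0.21 with 10 genes. The stalk genes Rplp0, Rplp1 and Rplp2 passed in none of the comparisons between strains at 1-day and 1-week.

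Counted library by library, without a test, all STR/ort libraries lay above all libraries of both other strains for 4 members in uninjured joints at 1-day (5.71% of all genes), 23 in injured joints at 1-day (4.84%), 24 in uninjured joints at 1-week (13.1%) and 40 in injured joints at 1-week (16%). For 0 members did they all lie below (5.44%, 3.91%, 11.6% and 11.6%). The 4 of the first count are near the share of all genes.

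The libraries also differed in the levels of genes that mark tissues, while the mix of tissue itself was not measured. For STR/ort against MRL/MpJ in uninjured joints at 1-day, 15 of 22 skeletal muscle genes were lower and 4 higher (median -0.69, turning to 0 lower and 7 higher with RUVg from 25 genes), all 10 fibroblast and synovium genes were higher (median 1.38), and 6 of 7 erythroid genes were lower and 1 higher. The fibroblast genes summed to 3.33 to 4.50% of counts in the STR/ort libraries and 1.32 to 1.77% in those of MRL/MpJ, the muscle genes to 4.71 to 7.91% against 8.87 to 11%, and the erythroid genes to 0.169 to 0.269% against 0.378 to 0.485%. Their part in the members' differences was not tested.

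**Figure D4:**
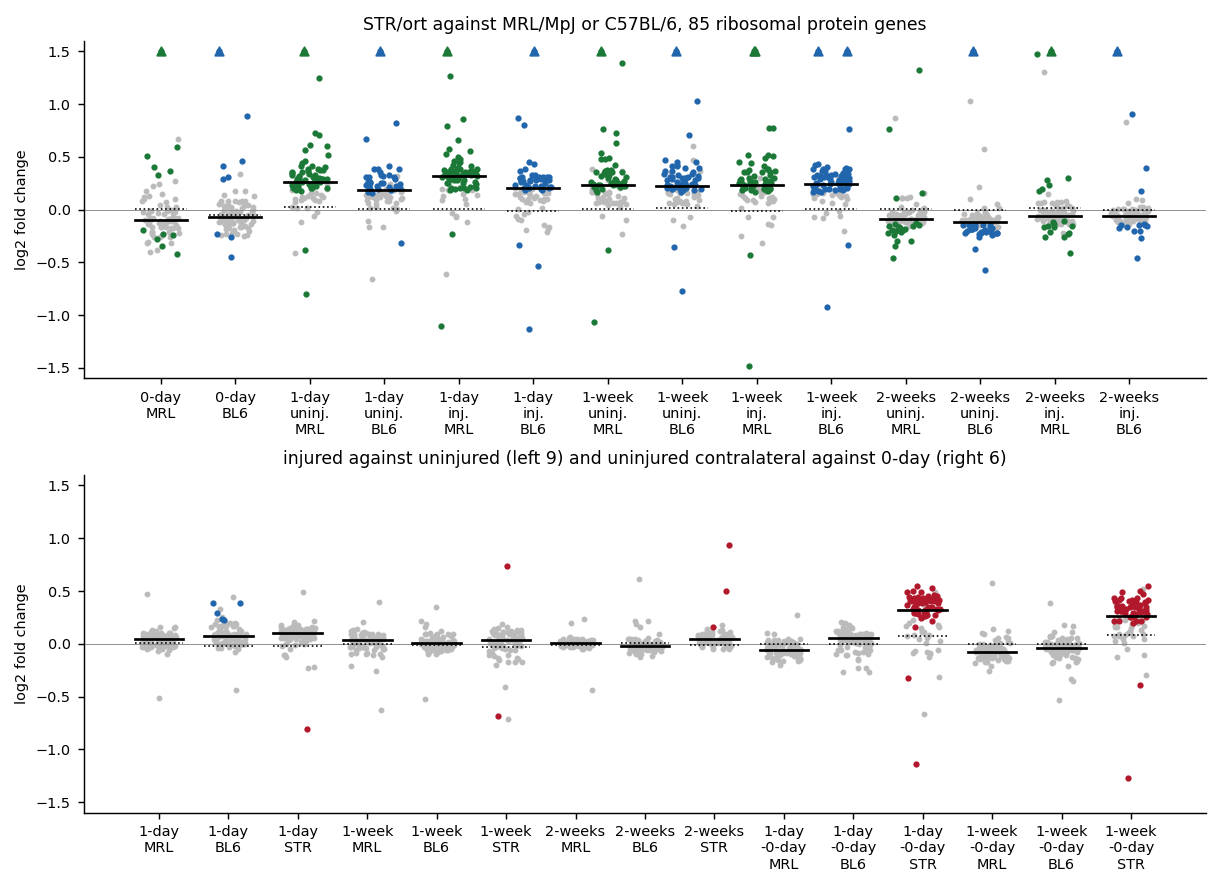
Log2 differences of all members, 1 point per member, for STR/ort against the other strains (upper panel) and for injured against uninjured joints and contralateral joints against 0-day (lower panel). Solid lines mark the members' median, dotted lines the median of all genes, coloured points pass at an adjusted p below 0.05, and triangles lie beyond 1.5 in either direction. The points of STR/ort at 1-day and 1-week are shifted upward as a group under the TMM scaling shown (under RUVg with 1 factor from 25 genes the median against MRL/MpJ at 1-day was -0.01), and those of the injury comparisons lie closer to 0, with medians of -0.02 to 0.10.

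The contralateral joints can be set against the 0-day joints of the same strain, since both belong to the first batch. In STR/ort 56 members rose at 1-day and 2 fell (16.7% and 13.5% of all genes), and 49 and 2 at 1-week (19.1% and 13.7%). These calls, and those of the single members that follow, are with TMM scaling. With scaling by the 25 housekeeping genes the counts were 27 and 6 at 1-day and 9 and 6 at 1-week, and under the 3 RUVg fits 0 members rose in STR/ort at either time and 0 fell, except 1 at 1-week with 2 factors. The median change was 0.32 at 1-day and 0.26 at 1-week, against 0.08 for all genes at each time, and 0 members rose by more than 1.5-fold (3.09% and 6.3% of all genes). The members' medians turned to -0.02 and -0.03 with 1 RUVg factor from 25 genes. In MRL/MpJ and in C57BL/6 0 members passed at either time with edgeR and 0 with DESeq2, where the shares of all genes were 0.11% and 0% in MRL/MpJ and 0.0636% and 14.3% in C57BL/6. With 2 RUVg factors 1 member fell in C57BL/6 at 1-day. At an unadjusted p below 0.05, 0 and 3 members did so in MRL/MpJ and 5 and 1 in C57BL/6.

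Rpl3, which forms part of the peptidyl transferase centre, is an example of the rise. It was at 856, 843, 738 and 779 CPM in STR/ort at 0-day and at 1000 to 1108 CPM in the uninjured joints at 1-day, without overlap, a change of 0.43 ± 0.079 (adjusted p = 8.5e-05). Rpl10a rose by 0.43, Rps20 by 0.40, Rps4x by 0.41 and Rps6 by 0.40 (log2). The stalk genes Rplp0, Rplp1 and Rplp2 did not pass at either time.

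Rpl3l and Rpl24 were those that fell at both times. Rpl3l, the muscle paralog of Rpl3, was at 326, 325, 310 and 370 CPM in STR/ort at 0-day, at 130, 129, 171, 191 and 121 CPM in the uninjured joints at 1-day and at 104, 193, 108 and 136 CPM at 1-week. All later libraries lay below those of 0-day. Its change was -1.14 ± 0.17 at 1-day (adjusted p = 4.4e-06) and -1.27 ± 0.18 at 1-week (adjusted p = 1.2e-06), and 18 and 19 of the 22 skeletal muscle genes fell with it (medians over the list -1.04 and -1.19), while 5 and 8 of the 10 fibroblast genes rose. The fall of Rpl24 was lost without 0-day STR/ort replicate 3 at either time (-0.13 at 1-day and -0.20 at 1-week), or without replicate 4 at 1-day.

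The difference between the strains in this change was itself tested, a test added after the single changes were seen. The change at 1-day was higher in STR/ort than in MRL/MpJ for 39 members and lower for 1 (6.55% and 7.76% of all genes), and higher than in C57BL/6 for 19 and lower for 2 (9.06% and 8.39%). At 1-week it was higher for 35 members and lower for 1 against MRL/MpJ (11.4% and 9.67%), and 34 and 2 against C57BL/6 (19.4% and 14%). The median difference of changes over the members was 0.36 and 0.25 at 1-day and 0.35 and 0.29 at 1-week. Rpl10a gave 0.52 ± 0.11 against MRL/MpJ at 1-day (adjusted p = 0.00179) and Rpl3l -0.93 ± 0.24 (adjusted p = 0.00806). These counts did not hold under RUVg: with each of its fits 0 members passed at 1-day in either comparison, and at 1-week 0 against MRL/MpJ and 1, lower, against C57BL/6. The median against MRL/MpJ at 1-day was -0.01 with 1 factor from 25 genes and 0.18 with 1 factor from 10 genes. With scaling by the 25 housekeeping genes 12 were higher and 3 lower against MRL/MpJ at 1-day, and 3 and 3 at 1-week.

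Markers of tissue differed in the same comparisons. Against MRL/MpJ 11 of 22 skeletal muscle genes were lower at 1-day (median -0.90) and 16 at 1-week (median -1.06), and of 10 fibroblast and synovium genes 1 was higher at 1-day and 8 at 1-week (medians 0.40 and 0.84). Against C57BL/6 15 of the muscle genes were lower at 1-day (median -1.32) and 22 at 1-week (median -1.85), 8 and 10 of the fibroblast genes were higher (medians 0.79 and 1.75), and of 11 cartilage genes 2 and 11 were higher (medians 0.58 and 1.89). Against MRL/MpJ 2 and 3 of the cartilage genes were higher (medians 0.80 and 0.82). C57BL/6 itself changed from 0-day to 1-week, where 10 muscle genes rose and 9 fibroblast and 11 cartilage genes fell (medians 0.57, -0.98 and -1.35). In STR/ort 19 muscle genes fell, and 8 fibroblast and 2 cartilage genes rose (medians -1.19, 0.85 and 0.50). In the same order of 4 comparisons (MRL/MpJ at 1-day and 1-week, then C57BL/6), 5, 5, 5 and 6 of 7 macrophage genes were higher (medians 0.48 to 0.92), 3, 5, 3 and 8 of 9 bone genes and 2, 4, 0 and 5 of 6 osteoclast genes. Of the lists for erythroid, neutrophil, B and T cells, fat, endothelium and proliferation at most 4 genes passed in a comparison. The part of these markers in the members' changes was not tested.

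All of these changes rest on the 4 STR/ort libraries of 0-day, and replicate 3 among them mattered most. Without it, the 51 members that passed at 1-week over all strains became 27, and the 58 at 1-day became 41. The differences of change at 1-day, 61 in both comparisons together, became 26 without replicate 3 and 33 without replicate 4, and those at 1-week went from 72 to 41 without replicate 3. With the spread estimated from the compared groups alone, 36 members passed at 1-day and 7 at 1-week over all strains.

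Injury itself moved few members. At 1-day 0 passed in MRL/MpJ (4.27% of all genes in either direction), 5 rose in C57BL/6 and 0 fell (10.8% and 8.15%), and in STR/ort 1 fell and 0 rose (5.07% and 5.05%). At 1-week 0 passed in MRL/MpJ (4.7%) and in C57BL/6 (11.4%), and in STR/ort 1 rose and 1 fell (11.8% and 10.2%). At 2-weeks 0 passed in MRL/MpJ (1.92%) and C57BL/6 (8%), and in STR/ort 3 rose and 0 fell (10.2% and 3.4%). At an unadjusted p below 0.05 the MRL/MpJ counts were 2, 1 and 0 at the 3 times and those of C57BL/6 were 2 at 1-week and 2 at 2-weeks. DESeq2 gave 0 in MRL/MpJ at each time, and 1 and 0 in C57BL/6 at 1-week and 2-weeks. The median member changed by 0.05, 0.07 and 0.10 at 1-day in MRL/MpJ, C57BL/6 and STR/ort, by 0.03, 0.01 and 0.03 at 1-week and by 0.01, -0.02 and 0.05 at 2-weeks (log2). The sign was mostly positive at 1-day, in 72 of the 85 members in C57BL/6 and 75 in STR/ort, where the median of all genes was -0.02 in each, and in STR/ort the members' median turned to -0.02 with scaling by the 25 housekeeping genes.

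In C57BL/6 at 1-day, Rps4l, the annotated copy of Rps4x, had the smallest adjusted p. It was at 15.2, 10.9, 17.7, 19.6 and 16.9 CPM in uninjured and 19.8, 19.1, 22.6, 22.8 and 21.2 CPM in injured joints, with overlap of the lowest injured and the highest uninjured library, and rose by 0.38 ± 0.11 (adjusted p = 0.0109). The stalk gene Rplp1, one of the acidic proteins that recruit translation factors, rose by 0.38 ± 0.12 (adjusted p = 0.0211), from 624, 531, 754, 647 and 511 CPM to 742, 840, 754, 899 and 771 CPM. Rpl39 (0.29), Rpl29 (0.23) and Rpl37 (0.24) were the others. The count of 5 was 1 to 3 without any of injured replicates 1, 2, 4 and 5 or uninjured replicates 1 and 2, and 12 without uninjured replicate 4. With the spread of the compared groups alone 1 passed, and Rps4l did not (0.39, adjusted p = 0.052). The calls of Rplp1 and Rpl39 were among those lost when single libraries were left out (changes of 0.32 to 0.47 and 0.20 to 0.36).

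In STR/ort, Rpl3l was the member that fell at 1-day and at 1-week. At 1-day it was at 63.7, 62.6, 81.6, 64.4 and 156 CPM in injured joints, of which only replicate 5 reached the uninjured range given above, and at 1-week at 72.2, 87.6, 57.4, 138 and 66.4 CPM. Rpl3l changed by -0.81 ± 0.21 at 1-day (adjusted p = 0.00877) and by -0.69 ± 0.21 at 1-week (adjusted p = 0.0193), the latter lost without uninjured replicate 2 (-0.48) or injured replicate 1, 3 or 5. With the spread estimated from the compared groups alone neither passed (-0.79 with adjusted p = 0.06 and -0.68 with adjusted p = 0.086). Of the 22 skeletal muscle genes 9 fell at 1-day and 15 at 1-week, with medians of -0.55 and -0.81 over the list, and the part of muscle content in the fall of Rpl3l was not tested. Without injured replicate 5 at 1-day, 12 members passed instead of 1, and the count was 2 without uninjured replicate 1 and 3 without uninjured replicate 5.

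Rpl39l, a paralog of Rpl39 best known from the testis, rose after injury in STR/ort at 1-week and at 2-weeks. At 1-week it was at 3.27, 3.26, 2.55 and 3.04 CPM in uninjured and 4.18, 8.10, 3.83, 4.78 and 4.58 CPM in injured joints, without overlap, a change of 0.73 ± 0.22 (adjusted p = 0.0164) that was lost without injured replicate 2 (0.52) or uninjured replicate 3. At 2-weeks it was at 1.06, 1.69, 1.42, 1.76 and 2.35 CPM in uninjured and 4.11, 4.04, 2.24, 2.88 and 2.91 CPM in injured joints, where 1 injured library lay below the highest uninjured one. The change was 0.94 ± 0.24 (adjusted p = 0.00655). Each of these values rests on few counts. With the spread estimated from the compared groups alone, the 1-week change did not pass (0.74, adjusted p = 0.057).

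Rps4l rose in STR/ort at 2-weeks by 0.50 ± 0.11 (adjusted p = 0.00197), from 7.39, 8.18, 8.62, 8.40 and 8.30 CPM to 12.4, 11.4, 10.8, 12.2 and 11 CPM, without overlap. Rpl7l1 rose by 0.16 ± 0.052 (adjusted p = 0.0427), a call lost without any of 7 of the 10 libraries. The 1-week count in STR/ort was 1 without any of 6 of the 9 libraries, injured replicates 1, 2, 3 and 5 and uninjured replicates 2 and 3, and 4 with the replicate number as a block, and the 2-weeks count was 5 without injured replicate 2.

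No member passed for the interaction of strain and injury at any time with edgeR and TMM scaling, in 9 comparisons. In the order STR/ort against MRL/MpJ, STR/ort against C57BL/6 and C57BL/6 against MRL/MpJ, 0.196%, 4.02% and 0.387% of all genes passed at 1-day, 1.08%, 0.56% and 0% at 1-week and 0.682%, 0.0462% and 0% at 2-weeks. DESeq2 gave 0 as well, while with 2 RUVg factors a member passed at 1-day. With TMM scaling there were 6 calls at an unadjusted p below 0.05 among the 765 tests of members. The smallest adjusted p at each time was that of Rps4l for STR/ort against C57BL/6 at 1-day (-0.41, adjusted p = 0.138), of Rpl24 for the same strains at 1-week (0.26, adjusted p = 0.278) and of Rpl39l for STR/ort against MRL/MpJ at 2-weeks (0.71, adjusted p = 0.600). The injury changes of Rpl3l, Rpl39l and Rps4l that passed in one strain are therefore not shown to differ from those in the others.

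At 2-weeks the higher levels of STR/ort were not seen. In uninjured joints 4 members were higher in STR/ort than in MRL/MpJ and 19 lower (17.7% and 16.5% of all genes), and 1 was higher than in C57BL/6 and 30 lower (12.9% and 13.6%). The median member differed by -0.09 and -0.12, or by 0.01 and 0.03 with scaling by the 25 housekeeping genes described below, and against C57BL/6 8 of the 85 members had a positive difference. In injured joints 7 were higher and 13 lower against MRL/MpJ (23.3% and 19.4%), and 4 and 11 against C57BL/6 (15% and 13.2%). Between C57BL/6 and MRL/MpJ it was 10 and 2 in uninjured (12.8% and 10.6%) and 6 and 3 in injured joints (16.7% and 13.3%). The sum over the 3 comparisons of injured joints, 44, became 79 without MRL/MpJ replicate 4.

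Rpl13a remained lower in STR/ort. Its levels in uninjured joints at 2-weeks were 187, 178, 183, 179 and 178 CPM in MRL/MpJ, 197, 208, 192, 196 and 187 CPM in C57BL/6 and 131, 118, 133, 131 and 147 CPM in STR/ort. The STR/ort libraries lay below all others, with differences of -0.46 ± 0.059 to MRL/MpJ (adjusted p = 3.5e-07) and -0.57 ± 0.059 to C57BL/6 (adjusted p = 1.2e-08). All 3 stalk genes were lower in STR/ort against both strains in uninjured joints, Rplp0 by -0.24 and -0.23, Rplp1 by -0.20 and -0.19, and Rplp2 by -0.22 and -0.26. Rps4l showed another order, with 3.39, 3.45, 3.12, 2.60 and 3.76 CPM in MRL/MpJ, all below the 6.55 to 8.26 CPM of C57BL/6 and the levels of STR/ort, and a difference of 1.32 ± 0.13 for STR/ort against MRL/MpJ (adjusted p = 5.0e-09).

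For 8 members all STR/ort libraries lay below all libraries of both other strains in uninjured joints at 2-weeks (5.48% of all genes), for 1 in injured joints (5.08%), and for 0 above (5.73% and 6.49%). Whether the strain difference at 2-weeks differed from that at 1-week in uninjured joints was tested as well, again after the single differences were seen. For STR/ort against MRL/MpJ it was lower at 2-weeks for 55 members and higher for 2 (11.1% and 8.33% of all genes), with a median of -0.34 over the members and -0.07 over all genes. For STR/ort against C57BL/6 it was lower for 65 and higher for 1 (13.6% and 10.6%), with a median of -0.37. With scaling by the 25 housekeeping genes the 55 and 2 became 6 and 4, with 1 and 2 RUVg factors from these genes 4 and 1 and 6 and 1, and with 1 factor from 10 genes 56 and 2. The 65 and 1 against C57BL/6 became 8 and 2, 3 and 0, 5 and 0, and 60 and 1 in the same order. With TMM scaling, Rps19 gave -0.88 ± 0.11 (adjusted p = 3.4e-06) and Rpl27 -1.72 ± 0.17 (adjusted p = 7.5e-08) against MRL/MpJ. Whether this turn belongs to the time or to the batch cannot be told apart. The skeletal muscle genes moved the other way, with 16 of 22 higher for STR/ort against MRL/MpJ at 2-weeks than at 1-week (median 0.92).

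The paralogs and their parent genes did not always pass in the same comparisons, and no test set a paralog against its parent. For Rpl3l, at 0-day C57BL/6 had 205, 172, 191 and 131 CPM of Rpl3l, below the 272 to 344 CPM of MRL/MpJ and the STR/ort libraries, with differences of -0.77 ± 0.11 to MRL/MpJ (adjusted p = 4.1e-05) and 0.89 ± 0.11 for STR/ort against C57BL/6 (adjusted p = 1.1e-05), of which that to MRL/MpJ came to 0.0025 and 0.0077 under RUVg with 2 factors and with 10 genes, described below. Rpl3 passed in neither of these, and its difference of STR/ort to MRL/MpJ was -0.24 (adjusted p = 0.028). The 22 muscle genes went with Rpl3l, with 19 lower in C57BL/6 than in MRL/MpJ and 21 higher in STR/ort than in C57BL/6.

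Rpl39l was higher in STR/ort than in MRL/MpJ at 1-day (1.25 ± 0.23, adjusted p = 4.2e-05) and at 1-week (1.39 ± 0.29, adjusted p = 0.00022) in uninjured joints, while at 2-weeks the difference of 0.76 ± 0.29 (adjusted p = 0.041) was lost without any of 6 of the 10 libraries. Its levels at 1-day were 1.40, 0.759, 1.38, 1.14 and 1.64 CPM in MRL/MpJ and 2.49, 1.99, 3.18, 2.92 and 4.12 CPM in STR/ort, without overlap. Rpl36al (0.44 ± 0.080) and its parent Rpl36a (0.26 ± 0.083) were both higher in STR/ort than in MRL/MpJ in uninjured joints at 1-day.

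Rpl22l1 and Rpl22, whose products bind RNA outside the ribosome too, both rose in STR/ort from 0-day to 1-day, by 0.42 ± 0.12 and 0.32 ± 0.078. Between batches they moved in opposite directions, Rpl22 from 427 to 156 CPM and Rpl22l1 from 9.64 to 19.1 CPM. Rps27l, a p53 target, passed between STR/ort and C57BL/6 at 0-day (0.31 ± 0.086, adjusted p = 0.0086), where its parent Rps27 did not, and Rps27 rose in STR/ort by 0.44 ± 0.093 at 1-day where Rps27l did not pass. Rpl7 rose in STR/ort by 0.32 ± 0.078 at 1-day and Rpl7l1 did not pass there.

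How many members passed as higher in STR/ort differed between scalings. For STR/ort against MRL/MpJ in uninjured joints at 1-day, the 58 higher and 2 lower members under TMM scaling became 57 and 2 with TMM factors computed without the members, 57 and 2 with DESeq2, 71 and 2 with library totals, and 58 and 2 with scaling by the 10 housekeeping genes that are no ribosomal protein genes. With scaling by all 25 housekeeping genes they became 25 and 5. With 1 factor of unwanted variation estimated from these 25 genes (RUVg) they became 5 and 1, with 2 factors 6 and 1, and with 1 factor from the 10 genes 7 and 0. RUVg removed calls from all genes too. For STR/ort at 1-day against 0-day 0.503 to 0.682% of all genes passed with it, against 26.4% with scaling by the 25 genes. For STR/ort against MRL/MpJ in uninjured joints at 1-day 22.9 to 25.2% did, against 48.2% with TMM factors computed without the members. In the latter comparison the members lost a larger part of their calls than all genes did.

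Of the 15 housekeeping genes that are members, 10 rose in STR/ort from 0-day to 1-day and 0 fell (median 0.27, with TMM scaling), among them Rpl3, beside 16.7% and 13.5% of all genes, while under the RUVg fits 0 members rose there. Of the other 10, 3 rose and 2 fell (median 0.09). At 2-weeks STR/ort against MRL/MpJ in uninjured joints went from 4 higher and 19 lower to 9 and 7 with scaling by the 25 genes, to 3 and 45 with 1 RUVg factor and to 9 and 3 with 2. The direction there was thus not the same under every scaling. Rpl27 and Rps19 passed as higher in STR/ort than in MRL/MpJ at 1-day in uninjured joints under each of these settings, with differences of 1.52 to 1.84 and 0.55 to 0.81.

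**Figure D5:**
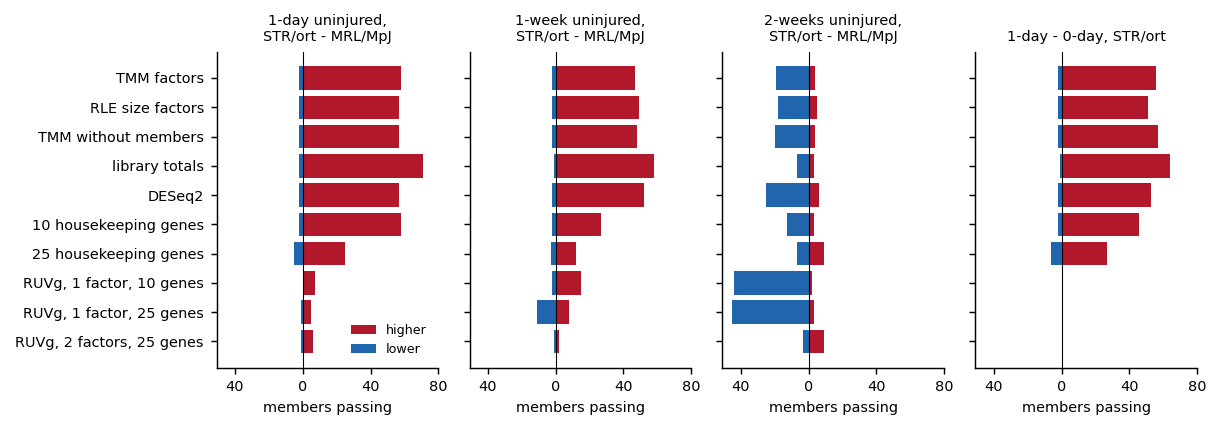
Number of members passing at an adjusted p below 0.05, higher and lower, under 10 settings of scaling and testing, for 4 comparisons of uninjured joints. The counts of STR/ort against MRL/MpJ at 1-day range from 71 higher with library totals to 5 with 1 RUVg factor from 25 genes, and those of STR/ort at 1-day against 0-day reach 0 with RUVg.

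The members were also split by the pyrimidine run shown above. Of the 28 members with a run in the window of a listed start, 16 were higher in STR/ort than in MRL/MpJ in uninjured joints at 1-day (median 0.23), and of the 36 without one 26 were (median 0.29), beside 25.6% of all genes. For STR/ort at 1-day against 0-day 18 of 28 and 23 of 36 rose, beside 16.7% of all genes. These are calls with TMM scaling, and over all members the 58 and 56 higher became 5 to 7 and 0 under the RUVg fits.

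The other genes of the translation machinery went partly with the members. In STR/ort from 0-day to 1-day in contralateral joints, 16.7% of all genes rose and 13.5% fell, beside which the following counts stand. Of 47 ribosome biogenesis genes 22 rose and 2 fell (median 0.19), which became 2 and 6 with scaling by 25 housekeeping genes and 0 and 0 with RUVg. Of 17 other genes with a TOP mRNA 8 rose and 0 fell (median 0.17), or 3 and 3 with that scaling. Eef1a1, the factor that brings the tRNA to the ribosome, rose by 0.41 (adjusted p = 3.2e-05). Fau, a ribosomal protein gene outside the name rule, rose by 0.46. Of 9 elongation factors 2 rose and 1, the muscle form Eef1a2, fell by 1.22 (log2), and of 29 initiation factors 7 rose and 6 fell. The mitochondrial ribosomal protein genes went the other way, with 33 of 77 falling and 0 rising (median -0.22, negative under each scaling, with 19 falling and 5 rising by library totals and 0 passing with RUVg). Of 21 genes of growth signalling to ribosomes 7 fell and 1 rose (Akt1s1 at -0.75), and their median of -0.15 was 0.01 with 1 RUVg factor.

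After injury in STR/ort at 1-day, where 1 ribosomal protein gene passed, 24 of the 47 biogenesis genes rose and 0 fell, beside 5.05% and 5.07% of all genes (median 0.22, and 7 to 31 rising under the other scalings), led by Gnl3, the nucleolar GTPase nucleostemin (0.43, adjusted p = 4.5e-05), and 9 of 29 initiation factors rose, Eif4a1 most clearly (0.41). Of the other TOP genes 3 of 17 rose, Npm1 by 0.34. In C57BL/6 at 1-day 6 of the 47 biogenesis genes rose, Nop16 by 0.31, and 1 fell, Dkc1 by 0.16 (log2), beside 10.8% and 8.15% of all genes. In MRL/MpJ 2 rose (Utp20, 0.30), beside 4.27% of all genes in either direction. At 1-week 5 rose in STR/ort, with Gnl3 at 0.40, beside 11.8% of all genes. The counts in C57BL/6, in MRL/MpJ and at 1-week thus lay near the shares of all genes.

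Among the comparisons of injured with uninjured joints, the mitochondrial ribosomal protein genes passed mainly in C57BL/6 at 1-week. There 17 of 77 fell and 0 rose (median -0.20, Mrps36 by -0.42), together with 10 of 22 muscle genes. Of all 17310 genes 571 were lower and 1394 higher in that comparison. Of the 21 growth signalling genes at most 3 passed in any of the 9 comparisons of injured with uninjured joints. Eif4ebp1, an inhibitor of cap-dependent translation, rose at 1-day in MRL/MpJ (0.45), C57BL/6 (0.49) and STR/ort (0.46). In C57BL/6 at 1-day Rps6kb2, an S6 kinase, fell by 0.28 and Max by 0.16 (log2), and in STR/ort Sesn1 fell by 0.30 and Myc rose by 0.37, of which the rises of Eif4ebp1 and Myc in STR/ort were lost with scaling by 25 or 10 housekeeping genes. At 1-week Eif4ebp2, Maf1 and Tsc1 fell in STR/ort (-0.43, -0.40 and -0.30), and at 2-weeks Eif4ebp2 did (-0.20).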

How the data were processed

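The members and the gene lists were chosen with earlier results of these data known. According to the submitters' processing notes, reads were aligned to mm10 with TopHat2 (2.0.11) and assigned to genes with featureCounts. The authors deposited raw counts per gene, without normalization, for 100 libraries. Of the 17313 entries 3 were identical repeats of another entry and were dropped, the authors' filter (a count of 2 or more in 5 or more libraries) removed 0 genes, and 0 columns lacked a sample. Of 190 library pairs within groups 0 held identical values and 0 differed by less than sampling noise.

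Groups follow the labels. edgeR 4.0.16 (R 4.3.3) was run on the counts with TMM factors and its quasi-likelihood test, 1 fit per time point (and 1 over the uninjured libraries of the first batch, for the changes from 0-day, and 1 over those of 1-week and 2-weeks, for the difference between these times), with Benjamini-Hochberg adjustment over all genes in each of 51 comparisons. A gene passed at an adjusted p below 0.05. Values are log2 differences ± SE from these fits, while shares and levels are given per library. The precision rests on 4 or 5 libraries a group with 6182016 to 20986027 counts each. The authors normalized with RUVSeq on 25 housekeeping genes, of which 15 are members, so that TMM was preferred here and RUVg is among the alternatives. The others were RLE size factors, TMM without the members, library totals, scaling by 25 or 10 housekeeping genes, DESeq2 1.42.0, 2 other count filters, the compared groups alone, a fold threshold of 1.5, a replicate block and leaving out each library. RUVg was computed from its published steps with limma 3.58.1. The fitting steps were tested on simulated data. Python 3.11.15 with numpy 2.4.6, pandas 2.3.3, scipy 1.17.1 and matplotlib 3.10.9 served for levels, promoters and plots.

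Members were named by rule: the smallest adjusted p in each direction at 0-day and for each injury comparison and per time for the interaction, the stalk genes, the paralogs with their parents, the 5 highest and 5 lowest levels, and the 5 widest and 5 narrowest ratios to the pool. Some genes that this rule names are not reported here. From other lists the gene with the smallest adjusted p after injury was named. All other named genes, such as Rps19, Rpl29, Rpl13a, Rpl10a, Rps6, Rpl37 and Rps29, were chosen after their values were seen.

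Joints of the same animal carry the same number in the labels at 2-weeks. Deviations of same-numbered joints from their group means correlated at over 0.1 in 5 of 5 pairs in C57BL/6 (median 0.24) and STR/ort (median 0.36) there, and in 0 of 5 in MRL/MpJ (median -0.17). At 1-week they did so in 4 of 4 pairs of STR/ort, 3 of 5 of C57BL/6 and 3 of 4 of MRL/MpJ, and at 1-day in 3 of 5 in each strain.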

Additional observations from a re-analysis of the deposited data

Results flagged for a closer look

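Single libraries that stood apart from the rest of their group were looked for in 189 groups of 4 or 5 libraries over 9 measures (the share of counts on members and the levels of 8 members), with Dixon's test at the 95% level, where chance gives about 1 in 20. It picked out 14 values. Rpl27 was at 248.9 CPM in MRL/MpJ replicate 2 at 0-day (200 to 206 CPM in the others), at 286.8 CPM in injured STR/ort replicate 3 at 1-week (608 to 711 CPM) and at 143.9 CPM in injured MRL/MpJ replicate 4 at 2-weeks (158 to 160 CPM). Rpl39 was at 77.9 CPM in uninjured STR/ort replicate 4 at 1-day (81.8 to 83.3 CPM), at 59.04 CPM in uninjured C57BL/6 replicate 3 at 1-week (74.1 to 76.6 CPM) and at 0 CPM in injured MRL/MpJ replicate 2 at 2-weeks (0.0711 to 0.0859 CPM). Rpl3l was at 156.2 CPM in injured STR/ort replicate 5 at 1-day (62.6 to 81.6 CPM). Rpl39l was at 2.586 CPM in MRL/MpJ replicate 4 at 0-day (0.861 to 1.10 CPM), at 0.6991 CPM in uninjured MRL/MpJ replicate 2 at 1-week (1.24 to 1.33 CPM), at 2.078 CPM in uninjured C57BL/6 replicate 1 at 1-week (1.28 to 1.46 CPM) and at 8.095 CPM in injured STR/ort replicate 2 at 1-week (3.83 to 4.78 CPM). Rps4l was at 23.82 CPM in uninjured STR/ort replicate 5 at 1-day (19.9 to 20.6 CPM). Rpl13 was at 104.3 CPM in MRL/MpJ replicate 2 at 0-day (36.5 to 38.1 CPM) and at 18.8 CPM in injured STR/ort replicate 3 at 1-week (45.5 to 49.0 CPM).

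Differences between strains in the same contrast were tested with edgeR. The change from 0-day to 1-day in uninjured joints was higher in STR/ort than in MRL/MpJ in 39 members and lower in 1 (6.55% and 7.76% of all genes), and than in C57BL/6 higher in 19 and lower in 2 (9.06% and 8.39%). For the change to 1-week the counts were 35 and 1 (11.4% and 9.67%) and 34 and 2 (19.4% and 14%). In either direction these are 40, 21, 36 and 36 members, and under each RUVg fit 0, 0, 0 and 1. The difference of STR/ort to MRL/MpJ was lower at 2-weeks than at 1-week in 55 members and higher in 2 (11.1% and 8.33% of all genes), 57 in all, and that to C57BL/6 lower in 65 and higher in 1 (13.6% and 10.6%), 66 in all, where time and batch cannot be told apart. The 123 of both together became 20 with scaling by 25 housekeeping genes, and 8 and 12 with 1 and 2 RUVg factors from these genes.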

How the results depend on the processing

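Counts of members passing did not move by more than 1.5 times with RLE size factors, with TMM factors computed without the members or without a count filter. RUVg with 1 and 2 factors from 25 genes moved 18 and 20 of the 38 counts and medians, and 15 of these 25 control genes are members. Depth limits Rpl39l, Rpl32l and, at 2-weeks, Rpl39, which rest on few counts. In what follows, RUVg-1, RUVg-2 and RUVg-10 stand for 1 factor from 25 genes, 2 factors from 25 genes and 1 factor from 10 genes, and totals for library totals. Unless a sentence says otherwise, the cause was not tested.

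At 0-day the 12 calls of STR/ort against MRL/MpJ became 36 with RUVg-10, 6 with the compared groups alone and 2 with the fold threshold (7 to 23 without single libraries). The 9 against C57BL/6 became 20 with totals, 19 with RUVg-1, 3 with RUVg-2, 3 with RUVg-10 and 2 with the fold threshold (6 to 15 without single libraries). The 7 of C57BL/6 against MRL/MpJ became 34 with RUVg-1, 2 with RUVg-2 and 4 with the fold threshold (4 to 8). The medians were -0.10 in the first, and -0.017 with RUVg-1 and 0.0057 with RUVg-2 (-0.13 to -0.024 without single libraries). In the second they went from -0.07 to -0.18 with totals, 0.015 with 10 housekeeping genes, 0.12 with RUVg-1, 0.046 with RUVg-2 and 0.28 with RUVg-10 (-0.10 to 0.014), and in the third from -0.04 to 0.068 with totals, -0.15 with RUVg-1 and -0.49 with RUVg-10.

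After injury at 1-day, the count of 0 in MRL/MpJ became 1 with the compared groups alone. The 5 in C57BL/6 became 1 with RUVg-2, 1 with the compared groups alone and 0 with the fold threshold (1 to 12 without single libraries). The 1 in STR/ort became 4 with totals, 4 with RUVg-2, 2 with DESeq2 and 2 with filterByExpr (1 to 12), and its median of 0.10 was -0.015 with 25 housekeeping genes and 0.0086 with RUVg-2. At 1-week the 0 in MRL/MpJ became 2 with RUVg-1. The 0 in C57BL/6 became 1 with 10 housekeeping genes, with DESeq2, with the compared groups alone and with the replicate block (0 to 1 without single libraries), and its median of 0.01 was 0.11 with 10 housekeeping genes. The 2 in STR/ort became 6 with RUVg-1, 1 with RUVg-2, 6 with DESeq2, 0 with the compared groups alone and 4 with the replicate block (1 to 2). At 2-weeks the 3 in STR/ort became 5 with RUVg-1, 9 with RUVg-2, 5 with RUVg-10 and 1 with the fold threshold (2 to 5). The interaction count at 1-day was 1 with RUVg-2. The replicate block moved no other count by more than 1.5 times and changed no call of a named gene.

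The sums over strain comparisons behaved as follows. In uninjured joints at 1-day 110 became 60 with 25 housekeeping genes, 18, 23 and 32 with RUVg-1, RUVg-2 and RUVg-10, and 13 with the fold threshold (90 to 121 without single libraries). In injured joints at 1-day 133 became 56, 19, 26, 64 and 13 in the same order (107 to 145). In uninjured joints at 1-week 108 became 41, 45, 16, 51 and 12 (89 to 109), and in injured joints 120 became 48, 68, 25, 76 and 11 (108 to 133). At 2-weeks 66 in uninjured joints became 34 with totals, 39 and 37 with 25 and 10 housekeeping genes, 34 with RUVg-2 and 5 with the fold threshold (47 to 86), and 44 in injured joints became 28 with totals, 75 with RUVg-1, 71 with RUVg-10, 27 with the compared groups alone and 6 with the fold threshold (35 to 79).

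For contralateral joints against 0-day, the 58 calls at 1-day became 33 with 25 housekeeping genes, 0, 1 (in C57BL/6) and 0 with RUVg-1, RUVg-2 and RUVg-10, 36 with the compared groups alone and 1 with the fold threshold (41 to 60). The 51 at 1-week became 15, 0, 1, 0, 7 and 1 in that order (27 to 52). The 61 differences of change at 1-day became 98 with totals, 21 with 25 housekeeping genes, 0 with each RUVg fit and 7 with the fold threshold (26 to 82), and the 72 at 1-week 17 with 25 housekeeping genes, 1 with each RUVg fit, 31 with the compared groups alone and 7 with the fold threshold (41 to 90). The 123 differences between 2-weeks and 1-week became 20 with 25 housekeeping genes, 8 with RUVg-1, 12 with RUVg-2 and 13 with the fold threshold (90 to 133). The mean share over all 100 libraries, 3.09%, was 3.365% of a total without muscle genes and 2.23% without the 15 housekeeping members.

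Of the differences of named genes, some turned in sign under RUVg. Rpl24 at 0-day in STR/ort against MRL/MpJ was -0.038 with RUVg-2, and Rps15a against C57BL/6 was 0.037 with RUVg-10. Rpl3l in C57BL/6 against MRL/MpJ at 0-day was 0.0025 with RUVg-2 and 0.0077 with RUVg-10. Rpl3l in STR/ort against MRL/MpJ in uninjured joints was 0.27, 0.21 and 0.082 with the 3 RUVg fits at 1-day, and 0.65 with RUVg-2 and 0.21 with RUVg-10 at 1-week. Rps9 for those strains at 1-week was -0.070 with RUVg-1.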
